A study of Mus musculus with 9 samples.

Results

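The MHC class I presentation genes were followed in regenerating mouse liver through every array probe whose platform gene symbol was H2-K1, H2-D1, H2-T23, B2m, Tap1, Tap2, Tapbp, Psmb8, Psmb9 or Psmb10. This gave 22 of 45281 probes, for 10 of the 19057 gene symbols on the array. Of these, 20 probes, covering all 10 genes, were detected on at least 4 arrays and entered the test, among 15687 probes tested in all. Livers were collected 12 h after partial hepatectomy (surgical removal of liver tissue, which starts regrowth), and RNA of whole liver tissue was hybridised to 1 bead array per mouse. The 4 control livers came from wild-type C57BL/6 mice labelled Control. The 5 KO livers came from C57BL/6 mice labelled LTRβ-/- and Etanercept. The genotype is read here, with the series title, as lacking the lymphotoxin β receptor, and these mice were given etanercept 24 h ahead of the operation. Etanercept joins a soluble TNF receptor to an antibody Fc part and captures TNF and lymphotoxin α. All 9 livers had been operated on, what the controls were given is not in the labels, and every KO mouse had the drug too, so knockout and drug cannot be told apart. In whole tissue, fewer cells of a type and less RNA per cell cannot be told apart.

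MHC class I molecules show peptides from inside the cell to CD8 T cells and NK cells. A heavy chain pairs with the light chain β2-microglobulin, and the pair receives its peptide in the endoplasmic reticulum. The peptides are cut by the proteasome, whose catalytic subunits are exchanged for immunoproteasome subunits under interferon γ, and are carried in by the transporter TAP. Hepatocytes, sinusoidal endothelial cells and Kupffer cells all carry class I molecules. Interferons and NF-κB, which acts downstream of the TNF and lymphotoxin β receptors, are known inducers of the pathway's genes.

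The promoters of the heavy chain genes and of B2m are shown because the results turn on how differently the strongest probes of these genes varied between livers. Each RefSeq window of GRCm38.p6 runs from 250 bases before to 50 bases after a transcript start, 5′ to 3′ on the gene's strand, and positions count from that start. H2-K1 has 2 such windows, both inside the gene's annotated span, and the one printed belongs to the start further downstream. Capitals mark matches, on either strand, to the interferon-stimulated response element core (GAAA, 2 bases of any kind, GAAA) or to the NF-κB site. The window of H2-K1 is chr17:34000284-34000583 on the minus strand, that of H2-D1 chr17:35262844-35263143 on the plus strand, that of H2-T23 chr17:36032652-36032951 on the minus strand and that of B2m chr2:122147437-122147736 on the plus strand.
H2-K1: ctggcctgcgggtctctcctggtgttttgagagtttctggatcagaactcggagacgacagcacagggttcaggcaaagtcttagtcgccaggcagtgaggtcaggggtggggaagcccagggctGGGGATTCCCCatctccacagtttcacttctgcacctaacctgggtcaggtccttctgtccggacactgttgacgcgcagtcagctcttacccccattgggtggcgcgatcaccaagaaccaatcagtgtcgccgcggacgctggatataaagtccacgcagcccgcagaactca
H2-D1: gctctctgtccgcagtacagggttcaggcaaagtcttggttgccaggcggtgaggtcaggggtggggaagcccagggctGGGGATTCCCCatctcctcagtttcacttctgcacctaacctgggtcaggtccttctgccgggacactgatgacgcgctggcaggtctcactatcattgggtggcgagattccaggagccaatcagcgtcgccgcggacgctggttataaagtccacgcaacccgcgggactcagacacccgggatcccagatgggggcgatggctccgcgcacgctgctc
H2-T23: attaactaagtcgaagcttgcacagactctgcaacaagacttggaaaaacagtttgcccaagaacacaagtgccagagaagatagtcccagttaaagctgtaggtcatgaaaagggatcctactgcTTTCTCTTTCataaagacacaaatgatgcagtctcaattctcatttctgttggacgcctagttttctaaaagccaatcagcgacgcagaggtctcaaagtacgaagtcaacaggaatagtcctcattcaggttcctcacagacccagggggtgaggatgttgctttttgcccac
B2m: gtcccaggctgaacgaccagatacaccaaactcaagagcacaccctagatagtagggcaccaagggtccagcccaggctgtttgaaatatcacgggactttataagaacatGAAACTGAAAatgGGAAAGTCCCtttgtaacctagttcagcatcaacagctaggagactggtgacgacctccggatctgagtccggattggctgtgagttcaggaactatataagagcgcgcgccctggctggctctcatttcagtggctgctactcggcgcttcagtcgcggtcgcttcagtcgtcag
The H2-K1 and H2-D1 windows each hold 2 overlapping NF-κB matches within 1 palindromic stretch, beginning at positions -125 and -124 in the printed H2-K1 window (-111 and -110 in the other) and -171 and -170 in H2-D1. The B2m window holds the response element core at -139 and an NF-κB match at -126, and the H2-T23 window holds the response element core at -124 on the other strand. Over 32841 RefSeq promoter windows of the same length, 3.44% hold the response element core and 8.46% the NF-κB site. The gamma-activated sequence TTCNNNGAA, found in 8.3% of all windows, occurs among the members in Psmb8 at -97. The half-site TGACGT, found in 7.51%, occurs in none of the 10 member windows, which cover 9 of the 10 genes. The table holds no window for Tap2. Tap1 and Psmb9 are read in opposite directions, and their windows share chr17:34187306-34187580. A match is a match of letters and shows no binding. Sites that depart from these letters are missed. The windows of H2-K1 and H2-D1, without a match to the response element core, are therefore not shown to lack such an element.

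Mean bead signal was 336 to 438 intensity units on 8 arrays and 143 on KO 4, where 9493 probes were detected against 13926 to 16186 on the others. The precision is limited by the number of arrays, and the standard errors of the log2 differences had a median of 0.30. Ltbr, the gene of the missing receptor, was read by 1 tested probe at normalized log2 signals of 6.31 to 6.83 in the controls and 4.86 to 6.65 in the KO livers, with KO 4 lowest. KO minus control was -0.73 ± 0.34 (SE), not a call in limma (adjusted p = 0.960). Whether the probe lies in the deleted part is not known, so it checks no label. Nothing in the labels states pooling or technical repeats. With 1 array per mouse, p-values measure a spread in which differences between mice and between arrays are joined.

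None of the 10 genes passed the test for a difference between the groups. By limma with Benjamini-Hochberg adjustment over all 15687 probes, 0 of the 20 member probes had an adjusted p under 0.05, against 0.0127% of all probes (2, both of Acta2). At an unadjusted p under 0.05 the members again numbered 0 of 20, against 3.7% of all probes (222 higher and 358 lower in the KO livers). In 12 of 20 member probes the KO mean was lower, against 54.7% of all probes. The median difference, KO minus control on the log2 scale, was -0.17 over the member probes and -0.038 over all probes. Without the dim array KO 4, 8 of 19 tested member probes were lower in the KO livers, the median was 0.059 and 0 passed in limma. KO and control arrays overlapped for every tested member probe. Groups without overlap were found for 0.28% of all probes with the KO arrays above and for 0.427% with the KO arrays below. The 95% intervals of the differences remained wide, so a missing call does not show equal levels. The narrowest was that of B2m probe ILMN_1216746 (-0.33 to 0.50) and the widest that of H2-D1 probe ILMN_2462745 (-1.72 to 1.33).

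**Figure D1:**
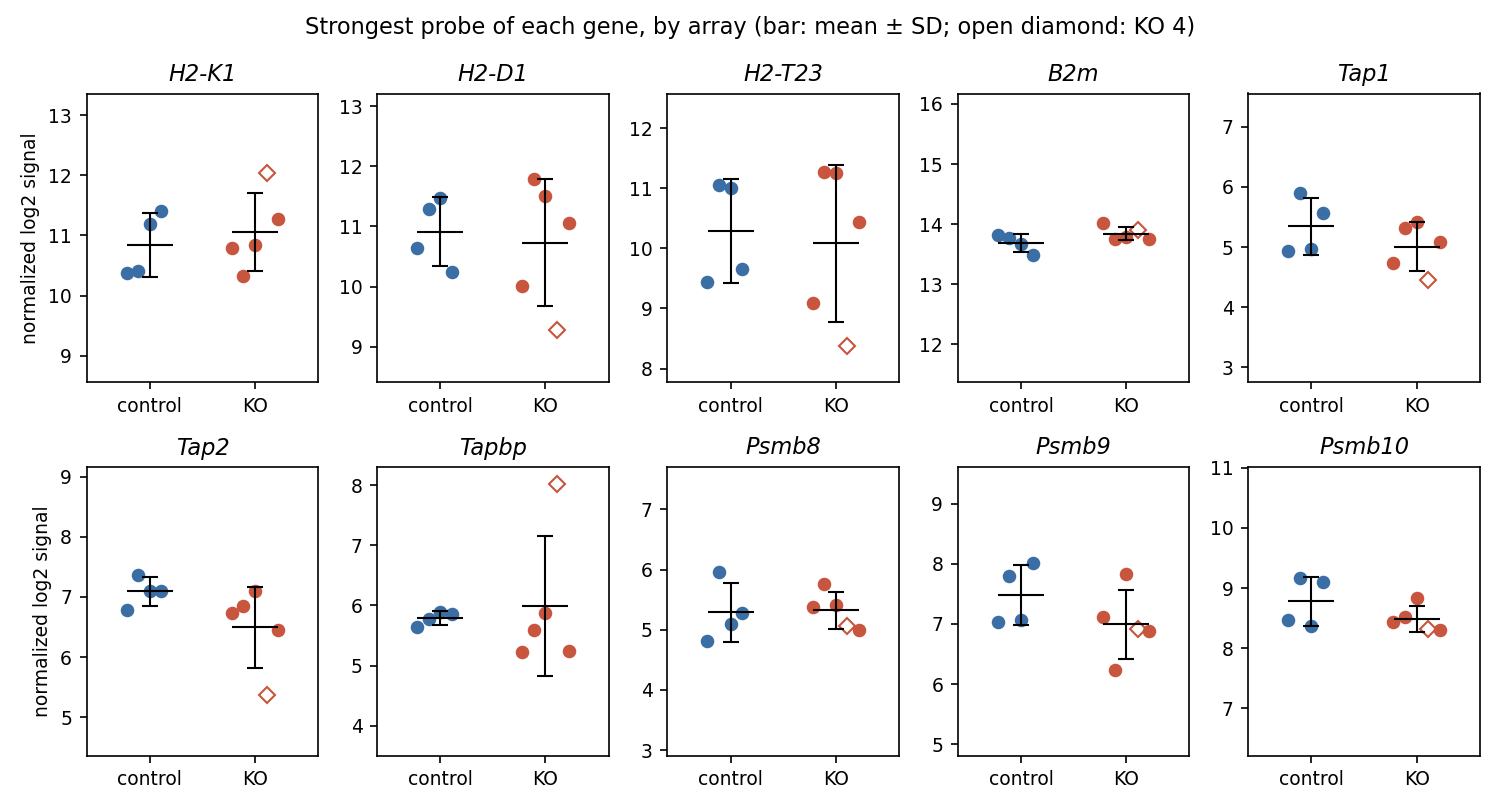
Normalized log2 signal of the strongest probe of each gene, 1 point per liver, with mean ± SD for 4 control and 5 KO livers; every panel spans the same height on the log2 axis. The groups overlap in all 10 panels, H2-D1 and H2-T23 spread widely in both groups, and B2m hardly varies.

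The heavy chain genes H2-K1 and H2-D1 encode the classical class I molecules of this strain, and H2-T23 encodes Qa-1, a non-classical class I molecule read by NK cell receptors. The strongest H2-K1 probe, ILMN_2588139, read 10.37, 10.41, 11.19 and 11.41 in controls 1 to 4 and 10.80, 10.32, 10.84, 12.04 and 11.28 in KO 1 to KO 5 (normalized log2 signal). The KO range enclosed the whole control range, and the dim array KO 4 was the highest of all 9. It was so only after processing. Before background correction and normalization KO 4 read 919 intensity units, the lowest of all, against 1644 to 3797 on the other arrays. The means were 10.84 ± 0.53 (SD, n = 4) in the controls and 11.05 ± 0.65 (SD, n = 5) in the KO livers, a difference of 0.21 ± 0.36 (SE; limma adjusted p = 0.961). Without KO 4 the difference was -0.035. In GRCm38.p6, H2-K1 (Entrez gene 14972) spans 33996012 to 34000619 of chromosome 17.

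H2-D1 (Entrez gene 14964, chromosome 17, 35263094 to 35267497), by its strongest probe, ordered the livers differently from the H2-K1 probe above. Its probe with the highest mean, ILMN_2476267, read 10.64, 11.29, 11.48 and 10.24 in controls 1 to 4 and 10.004, 11.78, 11.51, 9.28 and 11.06 in KO 1 to KO 5. Both groups held high and low livers: control 1, control 4, KO 1 and KO 4 were low, and the other 5 were high. The same 4 arrays were the lowest for H2-K1 probe ILMN_2795520, at 4.54 to 6.40 against 6.54 to 7.22. The 4 low arrays were also those with the fewest probes detected, 9493 to 14868 against 15323 to 16186 on the other 5. The part of array quality in this division was not tested. The means of 10.91 ± 0.57 (SD, n = 4) and 10.73 ± 1.06 (SD, n = 5) differed by -0.19 ± 0.50 (SE; limma adjusted p = 0.969), and by 0.17 without KO 4.

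H2-T23 (Entrez gene 15040, chromosome 17, 36029977 to 36032701) divided the livers in the same way. Its probe ILMN_2777474 read 9.44, 11.05, 11.01 and 9.65 in controls 1 to 4 and 9.09, 11.26, 11.26, 8.37 and 10.44 in KO 1 to KO 5. The same 4 livers were low, from 8.37 to 9.65, and the same 5 were high, from 10.44 to 11.26. The group means, 10.29 ± 0.86 (SD, n = 4) and 10.08 ± 1.30 (SD, n = 5), differed by -0.20 ± 0.63 (SE; limma adjusted p = 0.973), and by 0.22 without KO 4. In the authors' own normalized values the division into these low and high livers did not hold. There control 4 (10.91) was above KO 2 (10.84) and KO 5 (10.08) for this H2-T23 probe. For H2-D1 probe ILMN_2476267 control 4 (11.34) was above KO 2 (11.26) and KO 5 (10.69).

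The spread within groups was large for these probes. The within-group SD of the strongest H2-D1 and H2-T23 probes was 0.88 and 1.14 on the log2 scale, while the median over all tested probes was 0.46. Of the 500 probes closest in mean signal, 96% and 97.2% had a smaller SD. Leaving out KO 4, the ranges over the 8 remaining livers were still 1.78 and 2.17, against a median range of 1.05 over all probes. Across the 9 arrays the H2-D1 and H2-T23 probes correlated at a Pearson r of 0.974 (exact permutation p = 6.06e-05, adjusted p = 0.00273 over 45 pairs of members) and a Spearman rho of 0.967 (exact permutation adjusted p = 0.00744). Without KO 1 and KO 4, the arrays farthest from the H2-D1 median, r was 0.936. Among all other tested probes, 7.73% correlated with this H2-D1 probe at r over 0.9, and 6.85% with this H2-T23 probe. A high r is therefore not particular to this pair, and the permutation p does not show that it is. In the values normalized here the livers fall into 4 low and 5 high ones, and each slide holds 4 or 5 arrays. Correlations were computed over at least 6 arrays only, so the relation within either set or slide was not tested. The strongest H2-K1 probe correlated with this H2-D1 probe at r = -0.637 (exact permutation p = 0.0645, adjusted p = 0.242; rho -0.533, exact permutation adjusted p = 0.415), and at -0.041 without control 4 and KO 4. Over all 45 pairs of members r ran from -0.73 to 0.97 with a median of 0.055, and 23 pairs were positive. Without KO 4 the median was 0.25 with 28 positive pairs, and the lowest pair over all arrays, Tap2 and Tapbp, turned from -0.73 to 0.84.

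The division between high and low livers was not limited to these genes. The first component of the values, after removing group means, held 56.1% of the within-group variance (42.2% without KO 4), and 16.5% of all probes correlated with it at an absolute r over 0.9, as did 7 of the 20 member probes. Those 7 were all probes of H2-K1, H2-D1 and H2-T23, with both signs of r. Without KO 4 the limit was passed by 11.3% of all probes and by 5 member probes. As a description over 9 arrays, the strongest H2-D1 and H2-T23 probes followed it at r = 0.96 and 0.94. The strongest H2-K1 probe stood at -0.72, that of B2m at -0.27 and that of Psmb9 at -0.013. Probes of a gene differed here: H2-K1 ILMN_2634603 and ILMN_2795520 stood at -0.97 and 0.94, and H2-D1 ILMN_2608090 at -0.90. KO 4, the dim array, had the most extreme score (-0.76). Without KO 4 the component was recomputed, and the strongest H2-D1 and H2-T23 probes followed it at 0.92 and 0.98. The strongest H2-K1 probe then stood at -0.21, and H2-K1 ILMN_2634603 and ILMN_2795520 at -0.87 and 0.79. The part of array quality in this pattern was not tested. With the component as a covariate, an alternative chosen after seeing the data, 0 member probes passed in limma. The component comes from the same values, which makes these p-values too small. In that fit Tap2 had an unadjusted p of 0.0106 (adjusted 0.320) and Psmb10 probe ILMN_2757870 one of 0.0324 (adjusted 0.348).

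**Figure D2:**
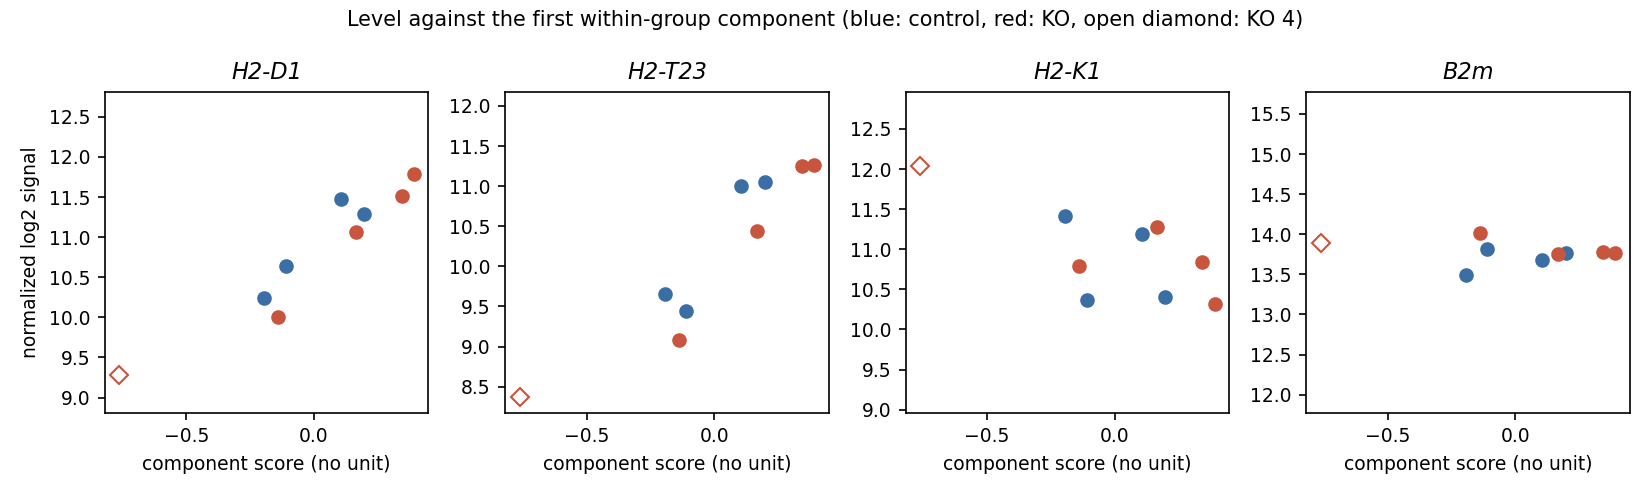
Normalized log2 signal of the strongest probe of 4 genes against the score of each liver on the first within-group component (no unit), with controls in blue, KO livers in red and KO 4 as an open diamond. H2-D1 and H2-T23 climb with the score, H2-K1 is highest in KO 4 and follows the score weakly among the other livers, and B2m stays level.

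Probes of the same heavy chain gene disagreed. The H2-K1 probes ILMN_2634603 and ILMN_2795520 correlated at r = -0.92 over the 9 arrays (-0.77 without KO 4), and differed between groups by 0.21 and -0.28, the latter turning to 0.090 with median scaling. H2-D1 probe ILMN_2608090 was detected in 3 controls and 1 KO liver and ran against the other H2-D1 probes, at r = -0.85 to -0.63 (-0.63 to -0.28 without KO 4). The remaining H2-D1 probes, ILMN_2462745 and ILMN_2944011, differed by -0.19 and -0.15, and the other H2-T23 probes, ILMN_1223179 and ILMN_2777471, by -0.082 and -0.27. The 3 H2-T23 probes went together, at r = 0.92 to 0.99. Heavy chain genes are near copies of each other, and probe sequences were not used here, so which copies each probe reads is uncertain.

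B2m (Entrez gene 12010, chromosome 2, 122147687 to 122153082) encodes β2-microglobulin, the light chain needed by every class I heavy chain to reach the cell surface. Its probe ILMN_2739999 read 13.81, 13.77, 13.67 and 13.49 in controls 1 to 4 and 14.02, 13.76, 13.78, 13.90 and 13.76 in KO 1 to KO 5. All 9 livers lay within 0.53 on the log2 scale. The means of 13.69 ± 0.14 (SD, n = 4) and 13.84 ± 0.11 (SD, n = 5) differed by 0.16 ± 0.19 (SE; limma adjusted p = 0.960). A companion probe, ILMN_1216746, gave 13.57 ± 0.11 (SD, n = 4) and 13.66 ± 0.11 (SD, n = 5), a difference of 0.089 ± 0.19 (SE). The within-group SDs of 0.13 and 0.11 were undercut by 4.8% and 3.2% of the 500 probes closest in mean signal. Signals this high lie near the top of the scale, with 85 and 104 tested probes above them, and quantile normalization ties them to rank. A further B2m probe, ILMN_2670561, was not detected on any array.

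In the authors' own normalized values B2m was the one member to pass: ILMN_2739999 differed by 0.24 (limma adjusted p = 0.0264), where 8.36% of all probes passed. Those values carry almost no difference between most surgery days, for a reason not given, and with surgery day as a block 0 of 15687 probes passed (B2m adjusted p = 0.815 in limma, difference 0.25). With median scaling the sign of the difference turned for both B2m probes, to -0.0075 and -0.084.

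Peptides reach the heavy chain through TAP, a transporter made of the products of Tap1 and Tap2, and tapasin, the product of Tapbp, bridges TAP to the class I molecule. Tap2 (Entrez gene 21355, chromosome 17, 34204479 to 34216321) had the smallest unadjusted p of the member probes. Its signal was 6.79, 7.37, 7.10 and 7.11 in controls 1 to 4 and 6.73, 6.85, 7.09, 5.37 and 6.44 in KO 1 to KO 5. KO 2 and KO 3 lay within the control range and the other 3 KO livers below it, with KO 4 the lowest. The difference was -0.59 ± 0.33 (SE; unadjusted p = 0.101, limma adjusted p = 0.960), with means of 7.09 ± 0.24 (SD, n = 4) and 6.50 ± 0.67 (SD, n = 5). Without KO 4 it was -0.34 ± 0.22 (SE; limma adjusted p = 0.960).

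Tap1 (Entrez gene 21354, chromosome 17, 34187556 to 34197225) was near the detection limit, being detected in 3 of 4 controls and 3 of 5 KO livers. It read 4.94, 5.90, 4.97 and 5.56 in controls 1 to 4 and 4.73, 5.32, 5.42, 4.45 and 5.09 in KO 1 to KO 5. The groups overlapped, with a difference of -0.34 ± 0.29 (SE; limma adjusted p = 0.960) that turned to 0.019 with median scaling. Tap1 and Psmb10 correlated at a Pearson r of 0.867 over the 9 arrays (exact permutation p = 0.000802, adjusted p = 0.0180), but their Spearman rho of 0.783 did not pass (exact permutation adjusted p = 0.194). Without control 2 and KO 4, the arrays farthest from the Tap1 median, r was 0.804.

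The probes of Tapbp (Entrez gene 21356, chromosome 17, 33919478 to 33929290) depended on KO 4. ILMN_3155492 read 5.64 to 5.89 in the controls and 5.23, 5.59, 5.88, 8.01 and 5.25 in KO 1 to KO 5. Only KO 4 exceeded the controls, although before background correction and normalization it gave the lowest signal of all 9 arrays (119 intensity units). Its difference was 0.20 ± 0.50 (SE; limma adjusted p = 0.967), and -0.34 without KO 4. ILMN_1226819 read 4.66 to 5.14 in the controls and 4.86, 5.57, 5.31, 6.73 and 5.30 in KO 1 to KO 5, a difference of 0.55 ± 0.34 (SE; limma adjusted p = 0.960). Here 4 of 5 KO livers lay above all controls, and without KO 4 the difference was 0.28. Before processing, KO 4 was the lowest array for this probe too (101 intensity units). The probes correlated at r = 0.84 over 9 arrays and -0.094 without KO 4.

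**Figure D3:**
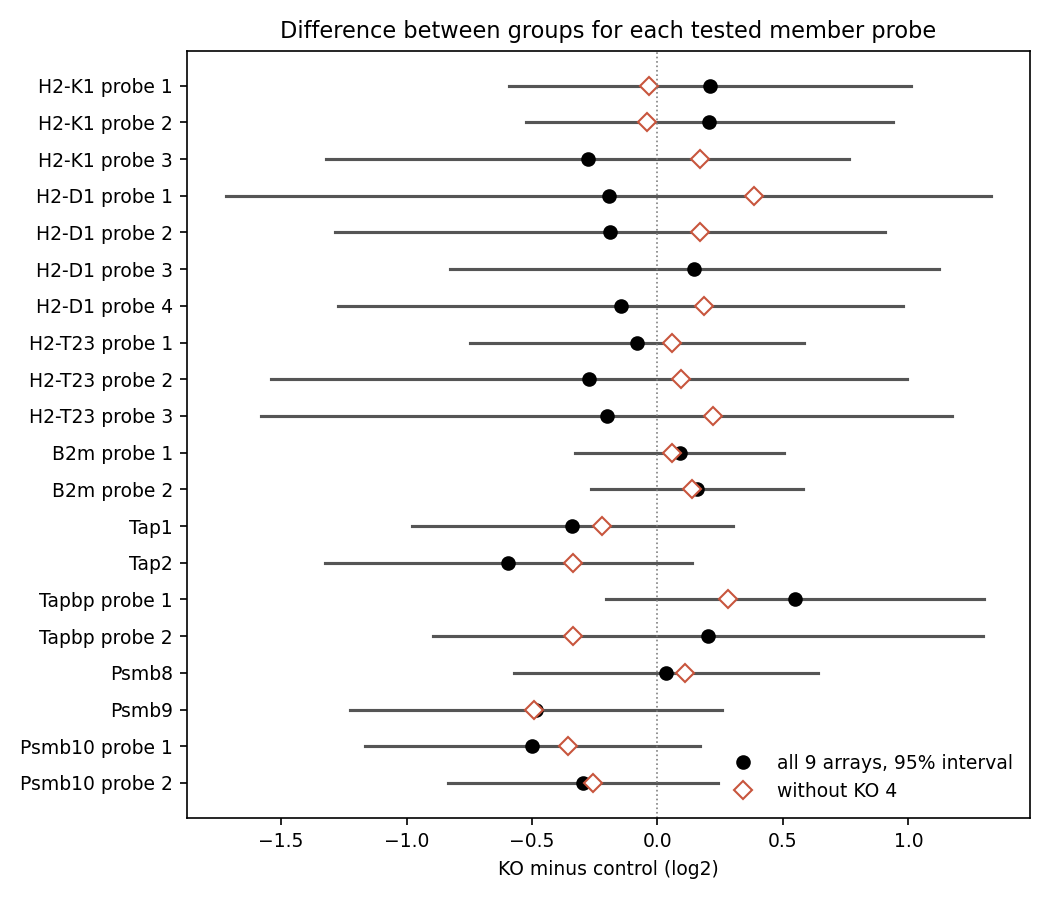
KO minus control difference (log2) of the 20 tested member probes, with the 95% interval over all 9 arrays as a line and the value without KO 4 as an open diamond; probes of a gene are numbered in order of their identifiers. Every interval includes 0, and leaving out KO 4 moves the H2-K1, H2-D1, H2-T23 and second Tapbp values across 0; H2-D1 probe 3 was not tested without it.

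The immunoproteasome subunits β5i (Psmb8), β1i (Psmb9) and β2i (Psmb10) replace the constitutive catalytic subunits encoded by Psmb5, Psmb6 and Psmb7. Psmb9 (Entrez gene 16912, chromosome 17, 34182030 to 34187330) read 7.04, 7.79, 7.07 and 8.01 in controls 1 to 4 and 7.11, 6.24, 7.83, 6.91 and 6.88 in KO 1 to KO 5. KO 2, KO 4 and KO 5 lay below the control range, and KO 1 and KO 3 lay within it. The means of 7.48 ± 0.50 (SD, n = 4) and 6.99 ± 0.57 (SD, n = 5) differed by -0.48 ± 0.34 (SE; limma adjusted p = 0.960), and by -0.49 without KO 4.

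Psmb10 (Entrez gene 19171, chromosome 8, 105935728 to 105938392) was read by a pair of probes of the same sign. ILMN_2914843 read 8.47, 9.16, 8.38 and 9.10 in controls 1 to 4 and 8.44, 8.51, 8.83, 8.32 and 8.30 in KO 1 to KO 5. Control 2 and control 4 were above every KO liver, while control 1 and control 3 lay among them. The difference was -0.30 ± 0.24 (SE; limma adjusted p = 0.960), and that of ILMN_2757870 was -0.50 ± 0.30 (SE; limma adjusted p = 0.960). Psmb8 (Entrez gene 16913, chromosome 17, 34198195 to 34201454) was weak: ILMN_1226683 read 4.82 to 5.96 in the controls and 4.99 to 5.76 in the KO livers, a difference of 0.034 ± 0.28 (SE). Its other probe, ILMN_2693940, was detected in 0 controls and 2 KO livers, with means of 4.75 and 4.97, and was not tested. Psmb9, Tap2, Tapbp probe ILMN_1226819 and both Psmb10 probes kept their sign under every alternative run, though Psmb9, Tap2 and Psmb10 turned positive within surgery day 5. With surgery day as a block and KO 4 left out, the values shrank to -0.055 for Psmb9, -0.040 for Tap2, 0.22 for this Tapbp probe and -0.13 and -0.15 for the Psmb10 probes ILMN_2757870 and ILMN_2914843.

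The exchange of subunits was compared as the within-array log2 difference between an immunoproteasome gene and its constitutive partner, tested by exact permutation of the 9 arrays. The group difference was 0.47 for Psmb8 minus Psmb5 (exact permutation p = 0.460), -0.10 for Psmb9 minus Psmb6 (exact permutation p = 0.802) and -0.17 for Psmb10 minus Psmb7 (exact permutation p = 0.714), with an adjusted p of 0.802 for each over the 3 contrasts. The smallest p this test allows is 0.00794. The Psmb8 contrast was -2.10 ± 0.25 (SD, n = 4) in the controls and -1.63 ± 1.19 (SD, n = 5) in the KO livers, where KO 4 stood at 0.052, and without KO 4 it differed by 0.069. Without KO 4 the Psmb9 and Psmb10 contrasts both stood at -0.45, and with median scaling the Psmb9 contrast turned to 0.093. The constitutive genes themselves, Psmb5, Psmb6 and Psmb7, differed by -0.44, -0.38 and -0.12, and without KO 4 by 0.041, -0.043 and 0.19.

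Within batches the members did not keep a direction. On slide 1, with 2 control and 2 KO livers, 12 of 20 member probes were lower in the KO livers (median -0.070), and on slide 2, with 2 control and 3 KO livers, 13 of 20 (median -0.25). Surgery day 1 set control 4 against KO 1 and gave 16 of 20 lower (median -0.42). Day 2 set control 2 against the dim KO 4 and gave 13 of 20 (median -0.94). Day 5 set control 1 against KO 3 and gave 3 of 20 (median 0.51). On that day the strongest H2-T23 probe differed by 1.82, Psmb9 by 0.79 and Tap2 by 0.30, each opposite in sign to the value over all arrays. Days 3 and 4 each held 1 group only.

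Genes around the members were counted from lists of the pathway, by the strongest probe of each gene, and 0 genes of any list passed in limma. Over all 9319 genes the median difference was -0.031, and 53.7% were negative. Of 9 other class I heavy chain genes, 6 were negative (median -0.13), among them H2-Q8 (-0.60), H2-Q6 (-0.24) and Cd1d1 (-0.17), while H2-Bl (0.78), H2-T10 (0.28) and H2-Q10 (0.20) were positive. Without KO 4, 7 of the 9 were positive. Of 14 further genes of peptide loading and trimming, 12 were negative (median -0.33), and 12 without KO 4 (median -0.16). Those with the smallest p were Ganab, a glucosidase II subunit (-0.43), Pdia3, the ERp57 of the loading complex (-0.55), and Tapbpl, a tapasin-like editor of peptides (-0.53), against Tpp2 (0.26) and Nrdc (0.078), both peptidases. Of 7 proteasome activator and assembly genes 6 were negative (median -0.18), with Psme4 at -0.32, Psmg1 at -0.30 and the PA28α gene Psme1 at -0.18, against 0.26 for Psme3. Without KO 4, 4 of these 7 were negative (median -0.066).

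Regulators of class I genes were evenly divided, with 9 of 18 negative. At an unadjusted p under 0.05, 2 of them were lower, against 3.7% of all probes in both directions. Irf9, part of the interferon-activated ISGF3 complex, differed by -1.09 ± 0.43 (SE) and its partner Stat2 by -0.61 ± 0.24 (SE), each with a limma adjusted p of 0.960. Irf9 read 7.63 to 8.89 in the controls and 7.43, 7.20, 7.73, 5.54 and 7.20 in KO 1 to KO 5, so KO 3 alone reached the control range. Without KO 4 the differences were -0.75 and -0.59. Irf1, which acts on immunoproteasome and Tap1 promoters, differed by -0.58 (-0.66 without KO 4). Among regulators with a positive difference, those with the smallest p were Rela (0.27), Rfxap (0.18) and Rfxank (0.19). Of 10 interferon γ targets, 5 were negative (median -0.024), with Irgm2 at -1.40, Igtp at -1.09 and Gbp3 at -0.32, against Cxcl9 at 0.12, Ubd at 0.066 and Cxcl10 at 0.044. Without KO 4, 8 of the 10 were negative.

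The class II genes, which present antigen taken up from outside the cell, had higher mean values in the KO livers: all 8 measured class II genes were positive (median 0.85), 4 of them at an unadjusted p under 0.05, and 0 passed in limma. H2-Ab1 read 8.34 to 8.72 in the controls and 9.77, 10.26, 9.34, 9.29 and 9.86 in KO 1 to KO 5, without overlap, a difference of 1.17 ± 0.25 (SE; limma adjusted p = 0.677). H2-Eb1 differed by 1.05 ± 0.22 (SE) and Cd74, the invariant chain, by 1.17 ± 0.42 (SE). The difference between the class I and class II values was not tested. Without KO 4, 7 of 7 tested class II genes were positive (median 1.10). Kupffer cell and macrophage markers had higher KO means as well: 10 of 11 tested markers were positive (median 0.42, 0 passed in limma). Their summed level was 3202 to 5477 in the controls and 5437 to 6733 in the KO livers, on a linear scale of normalized signal. Their part in the result was not tested.

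**Figure D4:**
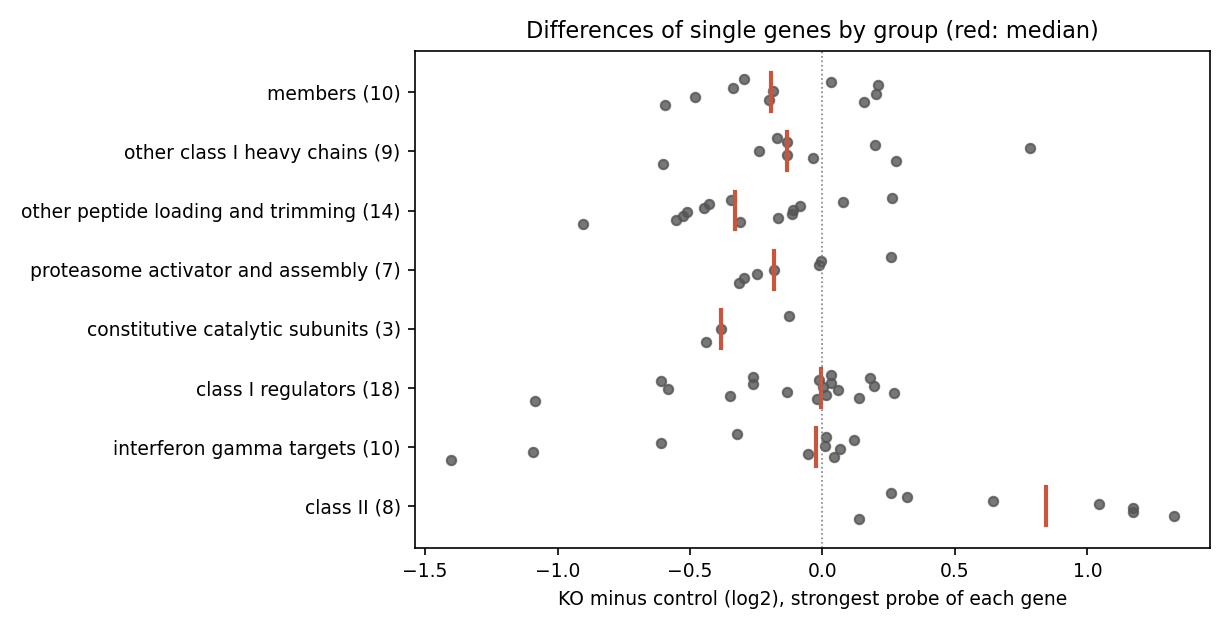
KO minus control difference (log2) of single genes by their strongest probe, 1 point per gene, for the members and 7 related lists, with the number of tested genes in brackets and a red line at each median. The members and the other class I lists scatter around or below 0, while all 8 class II genes lie above it.

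Marker levels of other cell types were compared beside the class I values. Of the hepatocyte markers 6 of 10 were negative (median -0.12), with summed levels of 73110 to 98210 in the controls and 76540 to 84230 in the KO livers. Of the endothelial markers 6 of 10 were positive, with 5907 to 9222 and 5226 to 8358. Most lymphocyte markers were not detected. Of 9 T cell markers on the array 2 were tested, and Cd3g, Cd4, Cd8a, Cd2 and Cd5 were detected on no array. Summed levels of the T cell markers were 1043 to 1343 in the controls and 519 to 1356 in the KO livers. The sum was carried by Cd8b1, at a mean log2 signal of 10.13 in the controls and 9.66 in the KO livers, while Cd3e, the other tested marker, stood at 4.81 and 4.97. Whether this sum follows T cells was not tested. Of 9 NK cell markers 1, Prf1, was tested (mean log2 signal 7.41 and 7.64) and 8, among them Ncr1 and Klrb1c, were never detected, with sums of 167 to 268 and 157 to 438. Of the 5 B cell markers 0 were tested, with sums of 33.6 to 48.1 and 35.8 to 55.5. Dendritic cell markers had 3 of 9 tested, all positive, with sums of 97.2 to 123 and 98.9 to 212. Neutrophil markers had 4 of 7 tested, all positive, with sums of 487 to 1128 and 516 to 1644. The dim array KO 4 set the lowest KO sum of the T cell and Kupffer cell markers and the highest of the NK cell, dendritic cell and endothelial markers. Their part in the class I values was not tested.

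The genes most like the members were ranked by Pearson r, over the 9 arrays, with the mean of the standardised member values. Among 9309 genes the highest were Copg2 (0.96), 1810009A15Rik (0.95), Daglb (0.95), Ccs (0.94), Acnat2 (0.93), Ifrd2 (0.93), Serinc2 (0.93), Trafd1 (0.93), Pygl (0.93) and Cdpf1 (0.93). Over the 8 arrays without KO 4 these 10 had r values of 0.90 to 0.97, and 3 of them were again among the top 10. Those 8 arrays were also used to pick the genes, so these values are no separate check. The arrays share the within-group component described above, and none of the 10 passed the group test in limma (0 at an adjusted p under 0.05; differences -1.06 to -0.082).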

How the data were processed

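RNA of 9 livers was measured with 1 Illumina bead array each. Per the file headers, the authors deposited intensity values without normalization, as mean bead signals of 45281 probes on every array, together with detection p-values. All 27 value columns were read. The authors' own normalized values, on a log2 scale by their range, came from Partek per the submitters' processing notes (version not stated). Their column medians are 6.77 to 6.80 and their normalization is not stated.

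Signals were background-corrected with limma neqc from the detection p-values (offset 16), quantile-normalized and log2-transformed. The test covered probes that 4 or more arrays detected at p under 0.05, and used lmFit and eBayes (limma, two-sided) without covariates, with Benjamini-Hochberg adjustment and a threshold of 0.05. Differences subtract the control mean from the KO mean of log2 values, and each SD covers the arrays of a group. The platform annotation gives 1 symbol for 34885 probes, several for 18 and none for 10378. Coordinates, promoters and current symbols come from RefSeq tables of GRCm38.p6. Work was done in R 4.3.3 (limma 3.58.1) and Python 3.11.15, and the fit was tested on simulated data.

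The members and lists were chosen with earlier results of these data known. Named were all member probes, up to 3 genes of each other list with the smallest p in each direction, and the 10 genes most like the members. Others, such as Psmb5 to Psmb7, H2-Eb1, Ltbr and the markers, belong to a contrast, a fixed list or a check. Per the labels, surgery day pairs livers of both groups on 3 days. After group means were removed, arrays of the same day correlated, across probes, at 0.20 on day 1, -0.44 on day 2 and -0.60 on day 5. Replicate numbers only name the animals. Alternatives were other normalizations, filters and variance models, surgery day and slide, the authors' values and each array left out. The component covariate, the authors' values with the day block and pair correlations without KO 4 or with regulators were added after seeing the data.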

Additional observations from a re-analysis of the deposited data

Results flagged for a closer look

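Among 46 groups of values, of the 20 tested member probes and the 3 subunit contrasts, 3 held a liver that stood apart from the others of its group, where chance gives about 1 in 20. In the KO group, H2-D1 probe ILMN_2608090 read 6.92 in KO 4 and 4.59 to 4.79 in the other 4 livers (normalized log2 signal). Tapbp probe ILMN_3155492 read 8.01 in KO 4 and 5.23 to 5.88 in the others. In the control group, Tapbp probe ILMN_1226819 read 4.66 in control 4 and 5.10 to 5.14 in the others. KO 4 is the array with a mean bead signal of 143, against 336 to 438 on the others, and its part in the first and second of these values was not tested.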

How the results depend on the processing

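Of 15687 probes, 2 passed in limma. The count was 6 with median scaling, 1 without background correction, 1 without a detection filter, 1 with 1 probe per gene, 12 with array weights, 5 without KO 4, 5 with the component covariate and 1311 with the authors' values. It was 0 with slide as a term, 0 with surgery day as replicate block, 0 with that block and no KO 4, and 0 with the block in the authors' values. Leaving out 1 array at a time gave 0 to 5. Member probes past the threshold numbered 0 under every alternative run except the authors' values, where 1 (B2m) passed. With surgery day as replicate block 0 members passed, so the pairing changed no member's call. The median member difference was -0.17 over all arrays, -0.046 with median scaling, -0.0012 with array weights, -0.32 with surgery day as replicate block, 0.059 without KO 4 and 0.21 with that block and no KO 4. Leaving out 1 array at a time gave -0.36 to 0.060, and it was above 0 without control 2 (0.0081), control 3 (0.038) or KO 1 (0.021).

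Of 488 member probe values under 25 alternatives, 63 had the opposite sign, 23 of them with 1 array left out. The cause was not tested. With median scaling H2-K1 ILMN_2795520 stood at 0.090, H2-D1 ILMN_2944011 at 0.12, B2m at -0.084 and -0.0075 and Tap1 at 0.019. With cyclic loess H2-K1 ILMN_2795520 stood at 0.090, H2-D1 ILMN_2608090 and ILMN_2944011 at -0.18 and 0.13 and Tapbp ILMN_3155492 at -0.0013. Psmb8 stood at -0.0099 in the authors' values, -0.0022 there with the day block and -0.062 with surgery day as replicate block. With array weights H2-K1 ILMN_2795520 stood at 0.20, the H2-D1 probes ILMN_2462745, ILMN_2476267, ILMN_2608090 and ILMN_2944011 at 0.23, 0.043, -0.26 and 0.37, H2-T23 ILMN_2777474 at 0.020, Tapbp ILMN_3155492 at -0.39 and Psmb8 at -0.15. Without KO 4 the H2-K1 probes ILMN_2588139, ILMN_2634603 and ILMN_2795520 stood at -0.035, -0.042 and 0.17, the H2-D1 probes ILMN_2462745, ILMN_2476267 and ILMN_2944011 at 0.39, 0.17 and 0.18, the H2-T23 probes ILMN_1223179, ILMN_2777471 and ILMN_2777474 at 0.058, 0.095 and 0.22 and Tapbp ILMN_3155492 at -0.34. With surgery day as replicate block and no KO 4 the same probes stood at -0.068, -0.19 and 0.24 (H2-K1), 0.58, 0.30 and 0.21 (H2-D1), 0.35, 0.40 and 0.62 (H2-T23) and -0.22 (Tapbp).

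Leaving out 1 array at a time gave -0.037 to 0.40, -0.039 to 0.37 and -0.46 to 0.16 for the H2-K1 probes in the same order, and -0.57 to 0.39, -0.45 to 0.17, -0.30 to 0.28 and -0.40 to 0.17 for H2-D1 ILMN_2462745, ILMN_2476267, ILMN_2608090 and ILMN_2944011. It gave -0.26 to 0.058, -0.59 to 0.097 and -0.50 to 0.22 for H2-T23, -0.30 to 0.39 for Tapbp ILMN_3155492 and -0.12 to 0.26 for Psmb8. Psmb9 minus Psmb6 stood at 0.093 with median scaling, 0.040 without background correction, 0.32 in the authors' values, 0.28 with surgery day as replicate block and -0.42 to 0.21 with 1 array left out. Psmb10 minus Psmb7 stood at 0.061 in the authors' values and at -0.45 to 0.087 with 1 array left out. Probes near the detection limit (Tap1, Tapbp, Psmb8, H2-D1 ILMN_2608090) carry little signal over background, which limits what their differences can show.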

Other observations

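Regulators of the pathway were set against the members over the 9 arrays, a look chosen after the values were seen. Of 180 pairs of 18 regulators with 10 members, 2 passed by Pearson r after adjustment over all pairs, 0 by Spearman rho, and 36 had an unadjusted exact permutation p under 0.05. Irf9 and Tap2 correlated at r = 0.943 (exact permutation adjusted p = 0.0464) with a rho of 0.883 (exact permutation adjusted p = 0.162), and at r = 0.711 without control 2 and KO 4. Irf8 and H2-T23 correlated at r = 0.841 (exact permutation adjusted p = 0.0464) with a rho of 0.833 (exact permutation adjusted p = 0.162), and at r = 0.776 without KO 1 and KO 4. Among all other tested probes, 6.85% correlated with this H2-T23 probe at r over 0.9, above the value for Irf8. The arrays share the within-group component described above, and whether these pairs are particular to regulators was not tested. The share of all genes passing against each member was not computed. The next 6 pairs shared an exact permutation adjusted p of 0.0523, and 3 of them were positive: Stat2 and Tap1 (r = 0.878), Irf1 and Psmb9 (0.866) and Irf8 and H2-D1 (0.860). The other 3 were negative: Nfyc with H2-T23 (r = -0.893) and H2-D1 (-0.888), and Jak2 with H2-K1 (-0.863). Nlrc5, a known activator of class I genes, and Tap2 correlated at r = 0.928 (exact permutation adjusted p = 0.112), and at 0.015 without KO 4 and KO 5, so that relation rests on those arrays. Slides hold 4 and 5 arrays, and correlations were computed over at least 6 arrays only, so none is given within a slide.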
